A study of Mus musculus with 4 samples.

Results

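Growth hormone, STAT and cytokine feedback genes were examined in ChIP-Seq peaks of the glucocorticoid receptor (GR) and of E2A in mouse liver. They comprised 10 of 21924 protein-coding genes, which are the receptor gene Ghr, the transcription factor genes Stat3, Stat5a and Stat5b, the target genes Igf1 and Igfals, the feedback genes Socs2, Socs3 and Cish, and the repressor gene Bcl6. A peak belonged to a gene when the deposited annotation gave it that gene symbol, or when it lay within 50 kb of the 5′ end of the gene, whatever its symbol. By this rule 90 of 17545 called peaks were kept, which merged into 50 of 10755 loci. Of the 90 peaks, 73 carried the symbol of one of these genes and 17 carried the symbol of a neighbour. The latter formed 9 loci, which were annotated to Fahd1, Hagh, Nubp2 and Eme2 around Igfals and to 5730420D15Rik around Socs2. Stat5a and Stat5b start 8627 bp apart and shared 3 loci, so their counts are not independent.

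All 4 samples were livers of male C57BL/6 mice of the genotype E47+/+, fed chow and collected at ZT 10, with 2 biological replicates for each ChIP. The E2A ChIP was done on livers that were also used for GR, so the ChIPs are not from separate animals, and which GR replicate shares a liver with which E2A replicate is not given in the sources used here. The methods give an age of 10 to 16 weeks. GR was precipitated with an antibody from Proteintech, and E2A, the products of Tcf3 that include the E protein E47, with an antibody from Santa Cruz. Livers were called untreated in the labels and Dex-treated in the description of the peak tables. The paper's Results place collection in the late afternoon, when endogenous corticosterone rises, and name no Dex for this experiment. The difference could not be fully resolved. The free-text descriptions of both E2A samples named a GR ChIP, and that of the second named E47-/- mice, so the titles, antibody and genotype fields were used. Replicate numbers of GR followed the labels, which are opposite to those in the names of the deposited lists.

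Growth hormone binds its receptor GHR in hepatocytes, and the kinase JAK2 then activates STAT5A and STAT5B, which drive genes such as Igf1, Igfals, Socs2 and Cish. Cytokines of the IL-6 type act mainly through STAT3, with Socs3 as a target gene. The SOCS proteins and CIS, the product of Cish, dampen receptor signaling, and BCL6 is a repressor whose recognition sequence resembles that of STAT5. STAT dimers recognize the palindrome TTCNNNGAA. GR binds the glucocorticoid response element (GRE) and is known to work together with STAT5 in liver, and E proteins bind the E-box CANNTG.

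The lists contained 4291 and 7334 peaks for the GR replicates and 4028 and 1892 peaks for the E2A replicates. Median widths ranged from 349 to 408 bp. No read counts, heights or q-values accompany the peaks, so the depth behind a peak is unknown and binding strength was not measured. Intervals of shares are 95% Wilson intervals and cover counting error only, with regions of the same gene treated as independent. Under the rule used for the 10 genes, 45.3% of all protein-coding genes had a GR peak and 30.1% an E2A peak. All 8 hepatocyte marker genes, among them Alb, Apob and Hnf4a, had peaks in both ChIPs. Of 6 B-cell markers, 3 had a GR peak and 1 (Pax5) an E2A peak, at a locus 46084 bp from the start of Pax5. Of 5 other leukocyte markers, 3 had a GR peak and 2 an E2A peak. A region called in all 4 samples lay 42194 bp from the start of Cd4. Of 3 endothelial markers, Pecam1 and Stab2 had regions in all 4 samples, 37584 and 43601 bp from their starts. Kdr had no peak in either ChIP. The part of other cell types in the peaks was not tested.

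Sequences at the Igf1 introns are shown because GR and E2A were called there in all 4 samples. They are 200 bases of mm10 on the plus strand at the centre of the stretch that all 4 peaks covered. Capitals mark matches to TTCNNNGAA or to the GRE consensus with at most 2 mismatches. The first lies at chr10:87885553-87885752, the second at chr10:87897465-87897664 and the third at chr10:87906842-87907041, all in intron 3 of 4 in the deposited annotation.
Igf1 intronic region 1: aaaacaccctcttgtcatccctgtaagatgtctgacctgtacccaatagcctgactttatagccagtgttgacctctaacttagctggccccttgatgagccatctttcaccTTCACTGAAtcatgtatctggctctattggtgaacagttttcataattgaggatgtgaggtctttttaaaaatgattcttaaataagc
Igf1 intronic region 2: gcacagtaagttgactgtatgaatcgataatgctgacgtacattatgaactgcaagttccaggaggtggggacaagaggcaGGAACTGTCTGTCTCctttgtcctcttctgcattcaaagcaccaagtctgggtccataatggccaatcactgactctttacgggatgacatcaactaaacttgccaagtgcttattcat
Igf1 intronic region 3: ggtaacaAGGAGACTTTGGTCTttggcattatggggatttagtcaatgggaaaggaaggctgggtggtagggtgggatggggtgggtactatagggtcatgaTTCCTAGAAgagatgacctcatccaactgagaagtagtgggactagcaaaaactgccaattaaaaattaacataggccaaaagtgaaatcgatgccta
The first stretch held 1 STAT match, the second 1 GRE match and the third 1 match of each.

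STAT matches under GR peaks at the promoters are shown because several of these regions held more than 1. Each line gives up to 30 bases, read in the direction of transcription, with matches to TTCNNNGAA in capitals. The sites lie at chr9:107296654-107296683 and chr9:107296762-107296791 on the plus strand for Cish, and at chr10:95416899-95416928 on the minus strand for Socs2. For Socs3 they lie at chr11:117969229-117969257 and chr11:117969502-117969530 on the minus strand. For Bcl6 they lie at chr16:23988579-23988607, chr16:23988612-23988641 and chr16:23988643-23988671 on the minus strand, and for Igfals at chr17:24877598-24877626 and chr17:24878163-24878191 on the plus strand. Stretches of Cish and Bcl6 overlap exons of the annotation.
Cish promoter, upstream pair: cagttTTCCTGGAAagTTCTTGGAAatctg
Cish promoter, downstream pair: ggTTCTAGGAAgatgaggcTTCCGGGAAgg
Socs2 promoter: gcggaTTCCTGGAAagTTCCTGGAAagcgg
Socs3 promoter, site 1: ggccgggcagTTCCAGGAAtcggggggcg
Socs3 promoter, site 2: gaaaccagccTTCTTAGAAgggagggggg
Bcl6 promoter, site 1: tgcaagaagtTTCTAGGAAaggccggaca
Bcl6 promoter, sites 2 and 3: tgaTTCTTAGAActggggTTCTTAGAAgtg
Bcl6 promoter, site 4: gcagctcaaaTTCCGAGAAttgagctctg
Igfals promoter, site 1: gatctataatTTCTCAGAAaagaggctga
Igfals promoter, site 2: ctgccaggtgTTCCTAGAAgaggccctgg
Cish and Socs2 both carried matches in tandem, as did Bcl6 at sites 2 and 3. Both matches of Socs2 had the same letters, and so did sites 2 and 3 of Bcl6.

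Bcl6 lies among distal GR regions, and the sequences of 2 of them are shown because they held the GRE matches closest to the consensus, with 1 mismatch (capitals), among the stretches called in 3 samples. They are 200 bases at the centre of the stretch that all 3 peaks covered, on the minus strand of mm10, at chr16:24043812-24044011 and at chr16:24090251-24090450.
Bcl6 upstream region at 54758 bp: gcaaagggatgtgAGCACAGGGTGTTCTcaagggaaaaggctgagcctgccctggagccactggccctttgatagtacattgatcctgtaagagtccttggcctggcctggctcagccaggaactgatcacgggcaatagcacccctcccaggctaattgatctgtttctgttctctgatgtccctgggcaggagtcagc
Bcl6 upstream region at 100880 bp: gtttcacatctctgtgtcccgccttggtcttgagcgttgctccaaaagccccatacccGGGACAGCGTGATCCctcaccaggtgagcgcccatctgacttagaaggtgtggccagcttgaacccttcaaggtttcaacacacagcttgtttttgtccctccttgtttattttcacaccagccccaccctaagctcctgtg
Neither stretch contained a STAT match.

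Every one of the 10 genes had a GR peak in at least 1 replicate, whereas 45.3% of all protein-coding genes did so under the same rule. A GR region called in both replicates was present at 6 of 10 genes, namely Igf1, Igfals, Stat5a, Stat5b, Socs2 and Bcl6, beside 19.5% of all genes. For Igfals these were the promoters of the neighbours Hagh and Eme2, and for Stat5a it was the Stat5b promoter. Those of Socs2 carried the symbol 5730420D15Rik. E2A peaks were found at 8 of 10 genes, all but Stat5a and Stat5b, beside 30.1% of all genes. E2A regions in both replicates were found at 6 of 10 genes, which were Ghr, Igf1, Igfals, Socs3, Cish and Bcl6, beside 10.5%. Those of Igfals were the Hagh and Nubp2 promoters. The 8 genes with E2A peaks also had a GR region that overlapped an E2A region by at least 1 bp, beside 20.2% of all genes. At Igfals and Socs2 the overlapping regions carried the symbols of neighbours, Hagh and 5730420D15Rik. Without GR replicate 2, GR peaks remained at 7 of 10 genes. Without GR replicate 2 the number of genes where both met was 4, and without E2A replicate 1 it was 5.

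**Figure D1:**
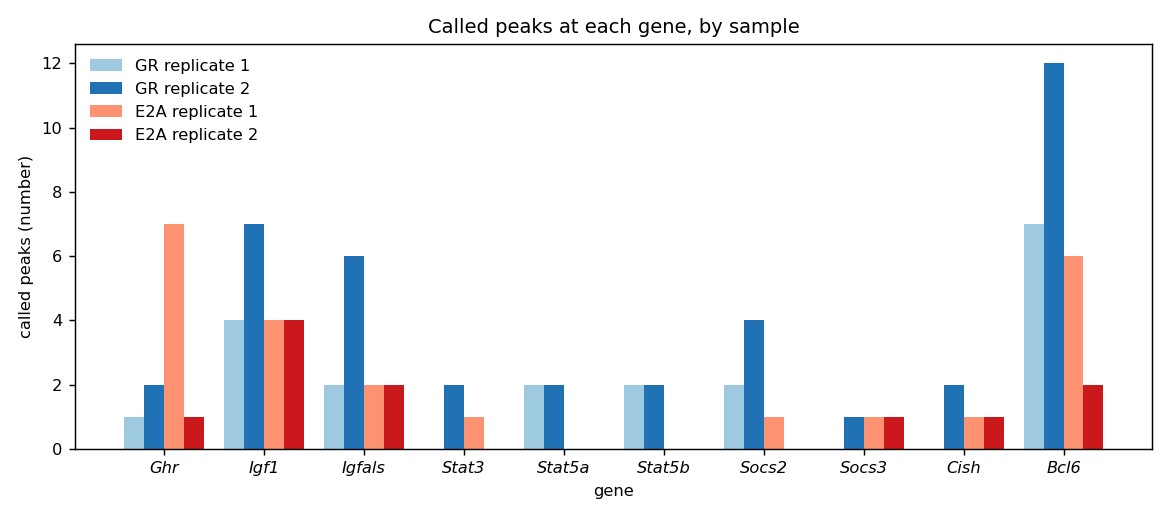
Number of called peaks (vertical axis) at each of the 10 genes (horizontal axis), with 1 bar per sample, light and dark blue for GR replicates 1 and 2 and light and dark red for E2A replicates 1 and 2. Bcl6 had the tallest bar with 12 peaks in GR replicate 2, Ghr was highest in E2A replicate 1 with 7 peaks, and Stat5a and Stat5b, which share their peaks, had no E2A bar.

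GR replicate 2 contributed 38 of the peaks at these genes and GR replicate 1 contributed 18. E2A replicate 1 contributed 23 and E2A replicate 2 contributed 11. Of the 50 loci, 25 were GR only (50%, beside 56.7% of all loci), 10 were E2A only (20%, beside 18.6%) and 15 had both (30%, beside 24.7%). Loci of a single sample numbered 27 (54.0%), beside 58.7% of all loci. Loci called in all 4 samples numbered 5 (10.0%, 4.35 to 21.4), beside 4.44% of all loci. Those were the 3 Igf1 intronic regions, the Bcl6 promoter and the promoter of Hagh, a neighbour of Igfals.

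The peaks merged into 40 GR regions and 25 E2A regions. Of the 40 GR regions, 15 met an E2A region (37.5%, 24.2 to 53.0), beside 30.7% of all GR regions. Conversely, 15 of 25 E2A regions met a GR region (60.0%, 40.7 to 76.6), beside 58.1% of all E2A regions. The shares of the whole series lay inside both intervals. Without Bcl6, 10 of 28 GR regions met an E2A region (35.7%). The replicates of GR shared 16 of 40 regions (40.0%, 26.3 to 55.4), beside 31.1%, and those of E2A shared 9 of 25 (36.0%, 20.2 to 55.5), beside 23.4%. Peaks that overlapped were close in position, with a median distance between centres of 68 bp over 37 pairs of a GR and an E2A peak and of 100 bp over all 5426 pairs. Within 100 bp lay 20 of the 37 pairs (54.1%), beside 50.1% of all pairs.

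**Figure D2:**
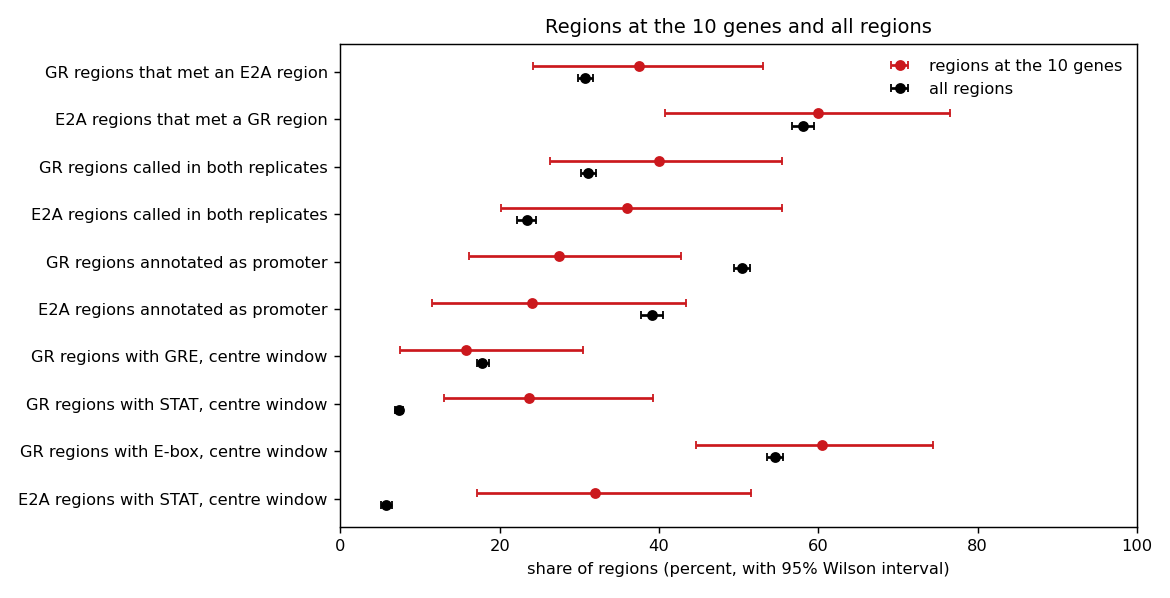
Share of regions in percent (horizontal axis, bars are 95% Wilson intervals) for the properties on the vertical axis, in red for regions at the 10 genes and in black for all regions of the series. Overlap and replicate shares lay near those of all regions, with 37.5% against 30.7% of GR regions meeting E2A, while STAT matches were at 23.7% against 7.36% of GR regions.

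Ghr, the growth hormone receptor, had more E2A than GR peaks. E2A replicate 1 had 7 peaks, and GR replicate 1, GR replicate 2 and E2A replicate 2 had 1, 2 and 1. No GR region was called in both replicates. The E2A region that both replicates called lay 24544 bp upstream of the gene at chr15:3608036-3608465, in an intergenic stretch with no GR peak, and contained a GRE match with 2 mismatches. The promoter at chr15:3583011-3583499 was called in GR replicate 2 and E2A replicate 1 with 429 bp in common, a distance between centres of 30 bp and no STAT match. The other 5 E2A peaks were single calls of replicate 1 inside introns, between 4506 and 133588 bp from the start of the gene.

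Stat3, Stat5a and Stat5b encode the latent transcription factors of the pathway. Stat3 had no peak in GR replicate 1 or E2A replicate 2, 2 peaks in GR replicate 2 and 1 in E2A replicate 1. Its promoter, at chr11:100939212-100939830, was a GR replicate 2 peak of 619 bp that held a GRE match with 2 mismatches. In intron 1 of Stat3, a GR replicate 2 peak and an E2A replicate 1 peak overlapped by 153 bp, which was 44.0% of the E2A peak and the least of the 37 pairs. At Stat5a and Stat5b no E2A peak was called. The Stat5b promoter at chr11:100850312-100851138 was called by GR in both replicates, with a width of 320 bp in replicate 1 and 827 bp in replicate 2, and held no STAT or GRE match. Intron 6 of 19 of Stat5a contained a GR replicate 1 peak of 526 bp with 2 STAT and 2 GRE matches, and intron 1 of Stat5b contained a GR replicate 2 peak of 410 bp with neither.

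Igf1 encodes the main growth factor that the liver secretes in response to growth hormone. It had 4 peaks in GR replicate 1, 7 in GR replicate 2 and 4 in each E2A replicate. Its promoter, like that of Socs2, had no E2A peak and was called in GR replicate 2 only, as a peak of 858 bp with 1 STAT match. This peak, a promoter by the annotation, began 3320 bp after the 5′ end of the gene. It began 256 bp after the nearest annotated transcript start, and the STAT match lay 944 bp after that start. The 3 intronic regions began 27145, 39040 and 47909 bp after the 5′ end of the gene, the last just inside the limit of 50 kb. Only 5 protein-coding genes (0.0228%) had at least 3 loci called in all 4 samples by deposited symbol, and 2 of these had more than Igf1, a number looked up after the values at Igf1 were seen.

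The 4 peaks at intronic region 1 were 440, 683, 393 and 573 bp wide in GR replicates 1 and 2 and E2A replicates 1 and 2. In intronic region 2 the widths were 473, 498, 336 and 260 bp, and in intronic region 3 they were 426, 1070, 443 and 580 bp. Region 2 was the most compact, since both E2A peaks lay entirely inside both GR peaks there and the centres differed by 1.5 to 12 bp. Centres at region 1 differed by 22.5 to 153 bp, and at region 3 by 36 to 260.5 bp, where the GR replicate 2 peak extended further upstream than the others. Over their full widths, the regions contained 2, 0 and 2 STAT matches and 1, 1 and 2 GRE matches, each GRE with 2 mismatches, and 2, 1 and 6 E-boxes. Upstream of Igf1, at 146081 bp from its start and with Igf1 as the annotated nearest gene, GR replicates 1 and 2 and E2A replicate 1 were called at chr10:87711802-87712184, with centres 9 and 21 bp apart and no STAT or GRE match.

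**Figure D3:**
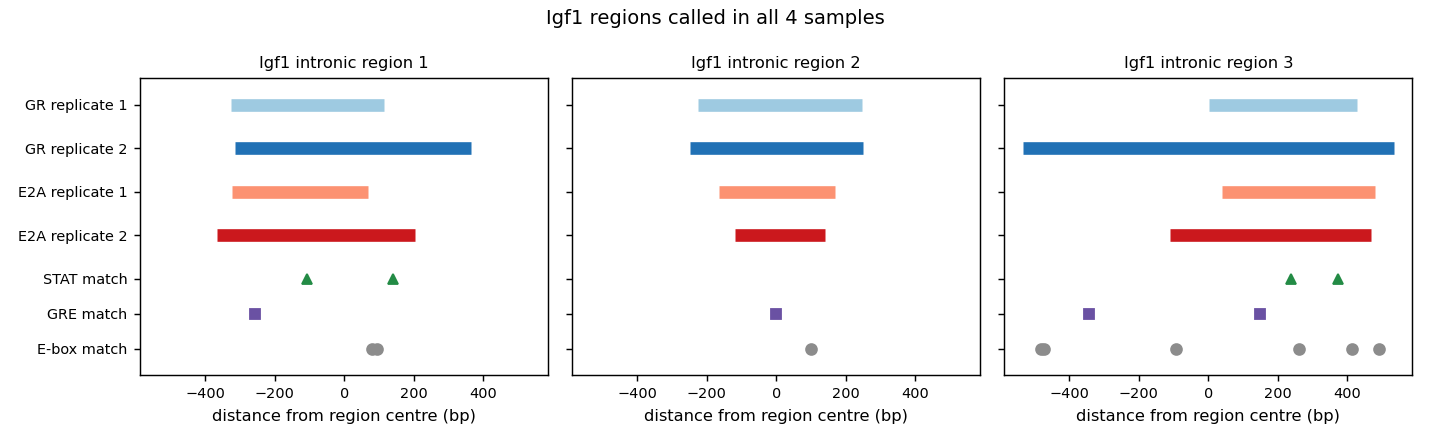
Called peaks of the 4 samples (bars, to scale) and matches to STAT (triangles), GRE (squares) and E-box (circles) sequences at the 3 Igf1 intronic regions, with distance from the region centre in bp on the horizontal axis. The bars of all 4 samples overlap in each region, and those of region 2 are nearly concentric, with centres 1.5 to 12 bp apart.

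Igfals encodes the acid-labile subunit, which holds IGF1 in its circulating complex. By the symbol Igfals alone it had a single peak, in GR replicate 2, 1278 bp wide at chr17:24877524-24878801, which the annotation called a promoter and which lay 11527 bp after the 5′ end of the annotated gene. It covered 2 STAT matches at 48 and 42 bp before annotated transcript starts. All other Igfals loci belonged to neighbours within 50 kb. Among these, the Hagh promoter, which starts 15005 bp away, was called in all 4 samples with 484 bp in common. The Nubp2 promoter was called in both E2A replicates and in no GR replicate, and the Eme2 promoter in both GR replicates and in no E2A replicate. None of these 3 neighbouring promoters held a STAT match.

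Socs2, Socs3 and Cish encode inhibitors that STAT signaling induces. Socs2 had 2 peaks in GR replicate 1, 4 in GR replicate 2, 1 in E2A replicate 1 and none in E2A replicate 2. Its promoter peak was called in GR replicate 2 only, with a width of 427 bp at chr10:95416609-95417035, and the tandem STAT matches shown above lay 47 and 58 bp before a transcript start. Upstream, a region at 8904 bp was called in both GR replicates, and one at 13119 bp was called in both GR replicates and E2A replicate 1 with centres 3.5 and 19 bp apart. The latter, at chr10:95430299-95430659 and annotated to 5730420D15Rik, held 1 STAT and 1 GRE match.

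Socs3 had a single region, its promoter at chr11:117968912-117969629. GR replicate 2, E2A replicate 1 and E2A replicate 2 were called there with widths of 670, 327 and 387 bp, and GR replicate 1 was not. The 2 STAT matches were 53 and 61 bp before annotated transcript starts. All 3 peaks had 301 bp in common.

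Cish showed the same pattern of samples at its promoter, chr9:107296241-107296978, where GR replicate 2, E2A replicate 1 and E2A replicate 2 had widths of 738, 513 and 278 bp. Both E2A peaks lay entirely within the GR peak, with centres 8.5 and 101 bp from its centre. All 4 STAT matches lay in the 278 bp that the 3 peaks had in common, between 51 bp before and 71 bp after a transcript start. A second GR replicate 2 peak, of 833 bp, lay downstream of the gene.

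**Figure D4:**
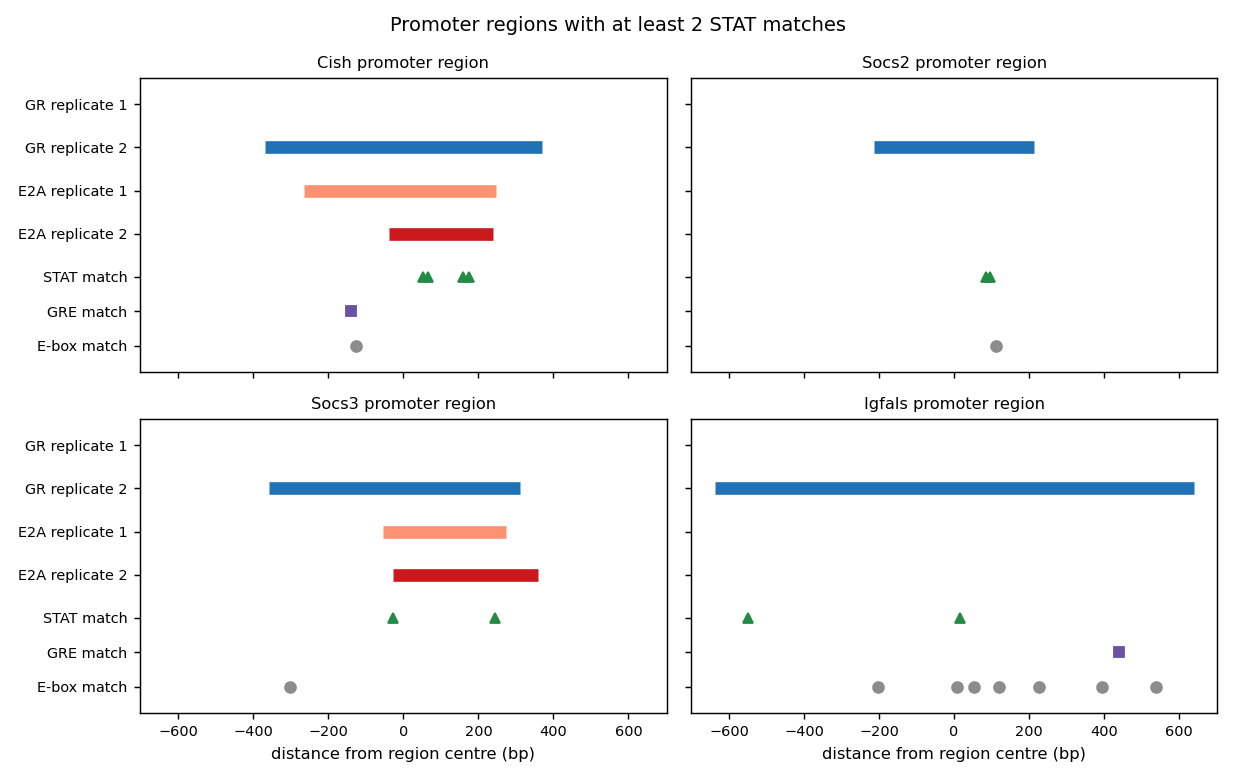
Called peaks of the 4 samples (bars, to scale) and matches to STAT (triangles), GRE (squares) and E-box (circles) sequences at the Cish, Socs2, Socs3 and Igfals promoter regions, with distance from the region centre in bp on the horizontal axis. No bar appears for GR replicate 1 at these promoters, and Cish has 4 triangles where the others have 2.

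Bcl6 had the most peaks, with 7 in GR replicate 1, 12 in GR replicate 2, 6 in E2A replicate 1 and 2 in E2A replicate 2. Its 12 GR regions, of which both replicates called 7, are a number that 6 protein-coding genes reached or exceeded by deposited symbol (0.0274%), which was also looked up afterwards. The promoter was called in all 4 samples, with widths of 861, 4724, 307 and 368 bp. The GR replicate 2 peak was wider than 99.6% of its list, and 83 bp were common to all 4 peaks. Over its full width, the promoter region contained 7 STAT matches, of which 4 lay between 199 and 263 bp after the start of the gene. It also contained 3 GRE matches, of which 1 had a single mismatch. All 3 GRE matches lay in the GR replicate 2 peak alone, outside the narrower peaks. The same held for the STAT matches 956 and 2581 bp before the start.

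Upstream of Bcl6, GR regions in both replicates were called at 4424, 54758, 68333, 89265, 91487 and 100880 bp, and E2A replicate 1 joined at 54758, 68333 and 100880 bp. E2A replicate 2 was called at none of these distal regions, and at Bcl6 was found at the promoter and in intron 1. GRE matches with a single mismatch were found at 54758 bp (1 match), 89265 bp (1 match) and 100880 bp (2 matches). An E2A replicate 1 peak at 50955 bp lay just outside the limit of 50 kb and was kept by its symbol. The nearest loci of other symbols outside the limit were Tyms-ps, 57539 bp from Igf1, and Ghdc, 59526 bp from Stat5b, both called in both GR replicates only.

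**Figure D5:**
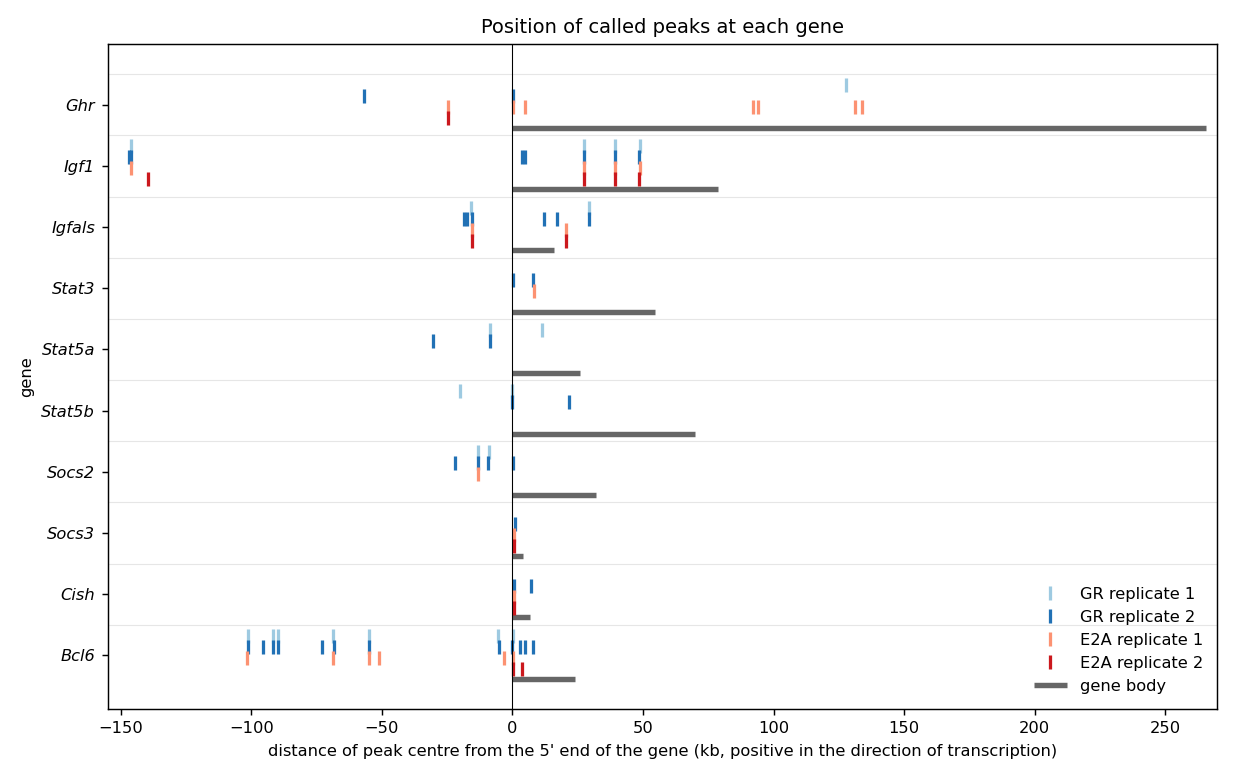
Position of each called peak (ticks, not to scale) at the 10 genes (vertical axis), as the distance of its centre from the 5′ end of the gene in kb (horizontal axis, positive along transcription), in 1 row per sample, with the gene body as a gray bar. Ticks of all 4 samples line up at the 3 Igf1 intronic regions and at the Bcl6 promoter, and Bcl6 has a series of distal ticks out to 100880 bp upstream.

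By the deposited annotation, GR was called at the promoter of 9 of 10 genes, all but Stat5a, beside 18.3% of all protein-coding genes. The promoter peaks of Igf1 and Igfals lay 3320 and 11527 bp after the 5′ ends of these genes. E2A was called at the promoters of Ghr, Socs3, Cish and Bcl6, which is 4 of 10, beside 7.86%. In GR replicate 1 only the Stat5b and Bcl6 promoters were called, and in GR replicate 2 all 9. GR replicate 2 had promoter peaks as 57.4% of its list and GR replicate 1 as 34.3%, and the part of this difference between the replicates in the result was not tested. Among the 12 promoter loci, including those of neighbours, 7 were in GR replicate 2 without replicate 1 (58.3%), beside 59.2% of all promoter loci. Counting those of neighbours, E2A promoter regions were called in both replicates in 5 of 6 cases (83.3%, 43.6 to 97.0), beside 26.6% of all E2A promoter regions. The exception was Ghr. By region, 27.5% of GR regions at the genes were promoters, beside 50.4% of all GR regions, and 24.0% of E2A regions, beside 39.1%.

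STAT, GRE and E-box matches were searched within the central 200 bp of each region no wider than 2000 bp. This kept 38 of the 40 GR regions, without the Bcl6 promoter and a region in intron 1 of Bcl6, and all 25 E2A regions. A STAT match was found in 9 of 38 GR regions (23.7%, 13 to 39.2), beside 7.36% of all GR regions, and in 8 of 25 E2A regions (32%, 17.2 to 51.6), beside 5.73%. GRE matches were found in 6 of 38 GR regions (15.8%, 7.44 to 30.4), beside 17.8%, and in 6 of 25 E2A regions (24.0%, 11.5 to 43.4), beside 10.5%. Away from promoters, GRE matches were found in 5 of 28 GR regions (17.9%, 7.88 to 35.6), beside 28.2%. E-boxes were found in 23 of 38 GR regions (60.5%, 44.7 to 74.4), beside 54.6%, and in 12 of 25 E2A regions (48.0%, 30 to 66.5), beside 59.2%.

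Of these sequences, STAT was the only one for which the intervals of both ChIPs excluded the share of all regions. The intervals treat regions as independent, although 12 of the 40 GR regions were at Bcl6. The 2 ChIPs are not separate evidence either, since 15 of the 25 E2A regions met a GR region. The genes include known STAT targets, and the part of this choice in the shares was not tested. Away from promoters, 5 of 28 GR regions held a STAT match (17.9%, 7.88 to 35.6), beside 11.7%, which lay inside the interval. For E2A, 5 of 19 regions away from promoters held one (26.3%, 11.8 to 48.8), beside 7.17%. With whole regions searched, STAT matches were found in 16 of 38 GR regions (42.1%, 27.9 to 57.8), beside 14.8%. GRE matches were then also in 16 of 38 (42.1%), beside 31.7%, so that the share at the genes changed from below to above that of all GR regions, with both shares of all regions inside the intervals. E-boxes were in 35 of 38 (92.1%, 79.2 to 97.3), beside 80.2%. Whole-region shares also depend on width. GR peaks at the genes had median widths of 433 and 492 bp in replicates 1 and 2, beside 372 and 408 bp in the full lists. The part of width in these shares was not tested. Over whole regions, GR regions at the genes contained 1.29 STAT matches per kb, beside 0.354, with a median GC content of 48.8% beside 57.0%. In promoter regions the densities were 1.54 beside 0.192 per kb, at 62.8% beside 68.5% GC, and the part of base composition was not tested.

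At promoters, 5 of 10 GR regions of at most 2000 bp contained a STAT match anywhere in the region (50%, 23.7 to 76.3), beside 8.83%. The 5 were Igf1, Igfals, Socs2, Socs3 and Cish, whereas Ghr, Stat3, Stat5b and the neighbours Hagh and Eme2 had none. At least 2 matches, a count chosen after these values were seen, occurred at Igfals, Socs2, Socs3 and Cish, which is 4 of 10 (40.0%, 16.8 to 68.7), beside 0.991% of all GR promoter regions. Cish, with 4 matches, was the single one of 4337 GR promoter regions of at most 2000 bp with at least 4 (0.0231%), a limit set at the count of Cish itself. The GR promoter region of Bcl6, with 7 matches, was wider than 2000 bp and so was not among them. For E2A, at least 2 matches occurred at Socs3, Cish and Bcl6, 3 of 6 promoter regions (50%, 18.8 to 81.2), beside 0.645%. With the same limit, Cish and Bcl6 were the only 2 of 1860 E2A promoter regions (0.108%).

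The same letters were searched in RefSeq promoter windows of GRCm38.p6, from 250 bases before to 50 bases after a start. Windows were found for 9 of the 10 genes, all but Socs2. Those of Igfals, Socs3, Cish and Bcl6 held a STAT match (44.4%, 18.9 to 73.3), beside 9.55% of 27025 genes. A match describes letters and does not show that a STAT protein was bound.

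Peaks at other genes of growth hormone and cytokine signaling were counted for a list of 43 genes. GR peaks were found at 34 of 43 (79.1%), beside 45.3% of all protein-coding genes, and E2A peaks at 27 of 43 (62.8%), beside 30.1%. At 19 genes a GR region met an E2A region (44.2%), beside 20.2%. Of 11 receptor genes, 8 had a GR peak and 6 an E2A peak. All 4 JAK kinase genes had a GR peak, whereas Jak1 alone had an E2A peak. Of 4 other STAT genes, 3 had GR and 2 had E2A peaks, and of 5 other SOCS genes 2 had GR and 3 had E2A peaks, with Socs4 the only one where both met.

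Of 8 phosphatase and PIAS genes, which limit STAT signaling, 7 had GR peaks and 7 had E2A peaks. All 5 IGF binding protein genes had a GR peak and 3 had an E2A peak, and the ChIPs met at Igfbp4 alone. The paper names Igfbp1 among the genes bound by both factors, whereas no E2A peak of the lists used here was joined to Igfbp1. The reason for this difference was not tested. Igfbp1 and Igfbp3 are neighbours that shared 3 of these loci, and Igfbp2 and Igfbp5 shared 2, so their counts are not independent. Of 6 target genes of growth hormone and STAT5 in liver, 5 had peaks in each ChIP and 4 had both at one region. A region called in all 4 samples was found at 8 of the 43 genes, which were Lepr, Jak1, Stat6, Ptpn2, Igfbp4, Mup20, Serpina1b and Cyp2d9. These regions overlapped the starts of Jak1 and Ptpn2 and lay 4111 bp from that of Igfbp4. At Stat6, Lepr, Cyp2d9 and Mup20 they lay 20598 to 28118 bp from the start, and at Serpina1b 91825 bp. The share of all protein-coding genes with such a region is not given here, so the count has no comparison.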

How the data were processed

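Called peaks of 4 ChIP-Seq samples of mouse liver, 2 of GR and 2 of E2A, were analysed, and the E2A ChIP used livers also used for GR. According to the methods, lysates were cross-linked in 1% formaldehyde and 8 µg of antibody was used per ChIP. Alignment to mm10 was done by the authors with BWA 0.7.13, duplicate removal with Picard 1.119 and peak calling in single samples with MACS2 2.1.0. Before peak calling, GR libraries were reduced to 18 mio read pairs and E2A libraries to 22 mio. These versions are from the submitters' processing notes, and the methods give others for Picard and MACS2. The control, peak threshold and annotation tool are not given in the sources used here. The values deposited by the authors, and used here, are the start, end, width and distance to the nearest start of each peak in bp, with no score of its height. The second set of files, with positions only, was not used.

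Samples were grouped by their titles. Peaks of a ChIP sharing 1 bp were merged to regions, and peaks of any sample to loci. Gene starts are those of GENCODE vM21, and 98.5% of 5885 genes had their deposited start within 1000 bp of one. A promoter region is one with any peak annotated as promoter. TTCNNNGAA, CANNTG and the GRE consensus (at most 2 mismatches) were searched on both strands of mm10, and the 3 motifs may overlap. Windows were 200 bp at region centres, since the lists give no summits, and regions over 2000 bp were left out. No p-values were computed, since the lists hold positions only. Counts and shares are given with Wilson intervals beside the same over the whole series. All 10 genes were described with a selection of their regions, so other regions enter the counts only. Pathway genes with a region called in all 4 samples were named. The genes and lists were chosen with earlier results of these data known. Alternatives changed the distance, the symbol rule, the gene start, the replicates, the peak width, the overlap and the motif window. Code was tested on simulated data. Software was matplotlib 3.10.9, numpy 2.4.6, scipy 1.17.1, pandas 2.3.3 and pysam 0.24.0 under Python 3.11.15, with samtools 1.23.1 for the genome index.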

Additional observations from a re-analysis of the deposited data

How the results depend on the processing

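Of 68 recomputed counts, 52 stayed within 1.5 times the reported value and 16 did not. Some of the 52 could not change, since leaving out a replicate of 1 ChIP does not alter the counts of the other ChIP alone. With regions called in both replicates, GR regions fell to 16, E2A regions to 9, GR regions that met E2A to 5, genes with a GR peak to 6 and genes with a shared region to 3. With the wider peaks of each list alone, at or above its median width, E2A regions were 12 and shared GR regions 9. With the whole region searched, GRE matches were in 16 GR regions, STAT matches in 16 (42.1% beside 14.8%) and E-boxes in 35 (92.1% beside 80.2%). The GRE share at the genes turned from below that of all GR regions (15.8% beside 17.8%) to above it (42.1% beside 31.7%). With at most 1 mismatch, GRE matches were in the central 200 bp of 2 GR regions (5.26% beside 5.29%). Leaving out 1 sample at a time gave 18 to 40 GR regions (18 without GR replicate 2), 11 to 25 E2A regions (11 without E2A replicate 1), 8 to 15 shared GR regions, 7 to 10 genes with a GR peak, 6 to 8 genes with an E2A peak and 4 to 8 genes with a shared region (4 without GR replicate 2). With the deposited symbol alone, 6 genes had an E2A peak, and with a limit of 100 kb 10 had one. No paired analysis was possible because the results come from no test, and although GR and E2A shared livers, the sources used here do not say which replicates did. Peak height and depth were not measured, which limits every absence of a peak to the threshold of its list.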
